A study of Mus musculus with 3 samples.

Results

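Small leucine-rich proteoglycans are secreted matrix proteins with a short core of leucine-rich repeats, most of which carry glycosaminoglycan or sulfated side chains. The 10 genes described here were the listed symbols Dcn, Bgn, Lum, Fmod, Omd, Ogn, Aspn, Prelp, Kera and Epyc, taken by symbol, with no threshold on a measured value. All 10 were present, in 12 of the 30795 rows and among the 25410 symbols of the deposited tables, and where a symbol had several rows their counts were summed. Dcn and Aspn had 2 rows each and the other 8 genes had 1.

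The core proteins bind fibrillar collagens and set fibril diameter and spacing. Several of them also hold growth factors in the matrix or, when released, act on cell-surface receptors. In bone, biglycan and decorin are the classical members, osteoadherin (Omd) is found mainly in mineralized tissue, and osteoglycin (Ogn) is also secreted as a soluble factor. By sequence the genes fall into class I (Dcn, Bgn, Aspn), class II (Lum, Fmod, Omd, Prelp, Kera) and class III (Ogn, Epyc).

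The samples were 3 libraries, replicates 1, 2 and 3, of mouse IDG-SW3 cells, an established line that matures from late osteoblast to osteocyte-like cells. Every culture was at day 35 of differentiation and had received 100 nM parathyroid hormone (PTH) for 24 h, and the design text calls the replicates biological. All 3 are cultures of the same line, on collagen-coated plastic in osteogenic medium with ascorbic acid and beta-glycerol phosphate, after expansion with interferon-gamma. Vehicle libraries were not analysed here, so the values are levels in treated cells and no effect of PTH was measured.

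The libraries held 35195518 to 45240005 counts, and between 8491 and 10634 of the rows were at 0. Replicate 3 had both the most counts and the most rows at 0. Whether this bears on the levels in replicate 3 was not tested. Levels are in RPKM, counts per kilobase of transcript scaled to the library's total as usual for that unit, with mean ± SD for the 3 libraries. Of 8 osteoblast markers 7 were above 1 RPKM, against 3 of 8 osteocyte markers, beside 43.3% of all genes tested. Those 3 were Pdpn at 156 ± 27.6 RPKM, Phex at 9.05 ± 0.940 and Fam20c at 1.78 ± 0.239. Of the other osteocyte markers 1 was below and 4 were unresolved. Unresolved means only that the test against 1 RPKM did not pass, not that a gene lay near that level. It takes in genes with almost no counts, while Ptprz1, at 0.57 ± 0.31 RPKM, was called below. Sost (sclerostin), among the unresolved, was detected by 2 counts, all of them in replicate 1. Its values of 0.0275, 0 and 0 RPKM in replicates 1, 2 and 3 lay far below 1 RPKM. In bulk RNA, fewer cells of a type and less RNA per cell cannot be told apart.

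Lum was the highest gene of the family at 289 ± 55.5 RPKM (n = 3) and Prelp the lowest at 1.07 ± 0.0386 RPKM. In edgeR's quasi-likelihood test against 1 RPKM, 9 of the 10 genes were above that level and Prelp was unresolved, beside 43.3% above among all 20998 genes tested and 45.5% among those with 1 row. The median of the 10 genes was 31.6 RPKM, against 0.739 RPKM for all genes tested. Together they took 0.155%, 0.127% and 0.173% of the counts in replicates 1, 2 and 3, or 0.151% ± 0.0232. Their levels summed to 633 ± 95.1 RPKM, lowest in replicate 2 and highest in replicate 3.

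**Figure D1:**
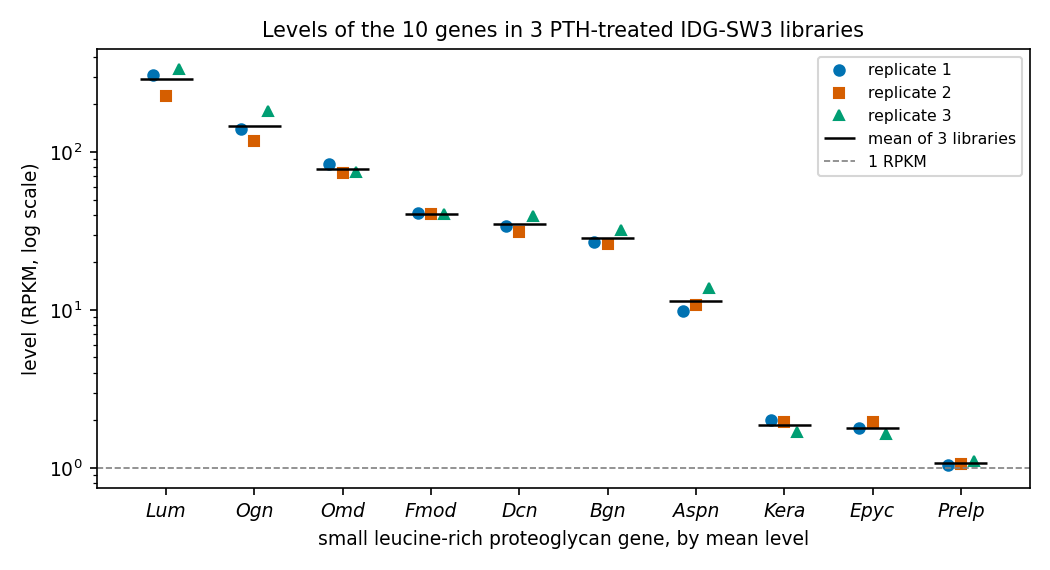
Level of each gene (RPKM, log scale) in the 3 libraries, one symbol shape per replicate, with a bar for the mean and a dashed line at 1 RPKM. Lum is highest at 289 RPKM, 7 genes have means of 11.4 RPKM or more, and Kera, Epyc and Prelp lie at 2.02 RPKM or lower in every library.

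Class II genes made up 64.9% ± 2.17 of the family's summed RPKM, class III 23.2% ± 1.83 and class I 11.9% ± 0.971. Lum alone contributed 45.5% ± 2.41 and Ogn 22.9% ± 1.88. The split between classes varied little among libraries, with class II between 62.8% and 67.2%. These shares depended on the processing. After the correction for GC content described below, Lum held 26.4% ± 2.21 and Ogn 37.0% ± 2.78, so their order turned, and class II held 53.3% ± 3.14, class III 37.3% ± 2.71 and class I 9.34% ± 0.884. With only transcript-specific bases of Dcn and Aspn as their lengths, also described below, class I held 51.0% ± 3.22, class II 36.1% ± 3.04 and Lum 25.3% ± 2.60. The summed level was then 1140 ± 163 RPKM, and 1400 ± 161 after the GC correction; these settings were applied to the shares after the data were seen.

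Lumican and fibromodulin are related class II proteins that bind collagen at overlapping sites, and lumican is best known for keeping corneal collagen ordered. Lum stood at 306, 227 and 334 RPKM in replicates 1, 2 and 3, from 26399, 20766 and 37038 counts. Replicate 2 was the lowest and replicate 3 the highest. Its mean ranked 264 of the 23032 genes with a length. The fitted level was 8.17 on the log2 scale above 1 RPKM (edgeR quasi-likelihood adjusted p = 1.46e-56). The size of p depended on the model, and limma on log2(RPKM + 0.1) gave an adjusted p of 6.79e-05.

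Fmod, which encodes fibromodulin, was the steadiest gene of the family, at 41.1, 40.3 and 40.6 RPKM. Its coefficient of variation over libraries was 0.966%, below the 1.43% that counting error alone gives at its 4512 to 5723 counts. Among the 2112 genes within a factor of 2 of its level, its SD of log2 RPKM stood at percentile 1.33. Lum exceeded Fmod 7.01-fold, in 3 of 3 libraries (limma adjusted p = 0.000239).

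Osteoadherin, the product of Omd, is a keratan sulfate proteoglycan that binds mineral and supports attachment of bone cells. Omd reached 84.2, 73.7 and 74.8 RPKM, with a mean of 77.6 ± 5.74. Replicate 1 was the highest, unlike for Lum and Ogn. Its spread, at percentile 46.3 of genes of like level, was ordinary.

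Kera and Prelp were the low class II genes. Keratocan, the product of Kera, is typical of the corneal stroma, and Kera had 162, 165 and 174 counts, or 2.02, 1.94 and 1.69 RPKM. All 3 values lay above 1 RPKM and the gene was called above it (edgeR adjusted p = 1.74e-05). Prelp encodes a basic, heparin-binding member found in cartilage and basement membranes. It stood at 1.04, 1.06 and 1.11 RPKM from 132 to 182 counts and was not called (edgeR adjusted p = 0.629). The annotation places 350 of the 3615 exon bases of Prelp under an exon of Gm15851 on the opposite strand. How strand was handled in counting is not given in the sources used here, so reads of the 2 genes cannot be told apart.

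Osteoglycin, encoded by Ogn, is a class III protein. Ogn was the second gene of the family at 140, 117 and 181 RPKM, from 12672, 11204 and 20982 counts. As with Lum, replicate 2 was lowest and replicate 3 highest. Its mean was 146 ± 32.2 RPKM and its rank 527 of 23032. Epyc, which encodes the cartilage protein epiphycan, stood far lower at 1.79, 1.96 and 1.63 RPKM. The log2 ratio of Ogn to Epyc was 6.25 ± 0.44 (limma adjusted p = 9.61e-05). Of the 2561 exon bases of Epyc, 1041 lie under Gm10754 on the other strand, a predicted gene with 14, 18 and 14 counts beside the 134, 156 and 157 of Epyc.

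Class I holds decorin and biglycan, which carry chondroitin or dermatan sulfate chains, and asporin, which has a run of aspartates near its start. Bgn stood at 26.9, 26.3 and 32.3 RPKM and Dcn at 33.8, 31.2 and 39.4 RPKM. The values of the 2 genes overlapped across libraries, and replicate 3 was the highest for each. Within every library Dcn was the higher, with log2 ratios of 0.329, 0.245 and 0.287, but the difference did not pass the test (mean 0.29, SE 0.15, limma adjusted p = 0.133). Aspn was lower, at 9.84, 10.7 and 13.7 RPKM.

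The values of Dcn and Aspn are less certain than those of the other genes because each was split over 2 rows. In Aspn, 1 row was at 0 in every library and the other held 803, 929 and 1442 counts. In Dcn the smaller row held 75, 40 and 6 counts and the larger 2014, 2004 and 3127. Symbols with several rows were at 0 in all libraries in 31.6% of cases, against 5.04% of symbols with 1 row, and their median level was 0.0693 RPKM against 0.694. The transcripts of Dcn share 81.3% of its exon bases and those of Aspn 97.1%. Whether reads in shared bases were counted is not given in the sources used here, and their part in the low values was not tested. If only the 362 bases of Dcn and the 69 bases of Aspn that belong to a single transcript had been counted, the fitted levels would be 166 and 352 RPKM. That calculation was added after the data were seen, and it would place Aspn above Lum, and Dcn between Lum and Ogn. The order of these genes is therefore given as the deposited counts have it.

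Pairs of genes were compared by the log2 difference of RPKM + 0.1 within a library, and a fold on this scale is understated for low genes. Of the 45 pairs, 42 differed by limma, fitted over all genes with each member in turn as reference, beside 93.6% of all comparisons of a gene with a member. The members' share is thus near the background. With 3 libraries an exact sign-flip permutation test of a pair cannot give a p below 0.25. The p-values measure agreement among the libraries and do not cover a bias that all of them share.

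Going down the order of levels, 6 of the 9 steps passed the test. Lum exceeded Ogn 1.99-fold in 3 of 3 libraries, with log2 ratios of 1.13, 0.957 and 0.887 (limma adjusted p = 0.00909). Without replicate 1 the pair no longer passed (limma adjusted p = 0.115), and the GC correction turned the ratio to −0.49. Ogn exceeded Omd 1.86-fold (limma adjusted p = 0.0188), a call lost without replicate 1 (0.0976) and with the shortest transcript lengths (0.084). Omd exceeded Fmod 1.90-fold (limma adjusted p = 0.00316), and their library values did not overlap; with the GC correction the ratio was 7.99-fold.

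Fmod, Dcn and Bgn formed a middle group whose steps were small, although its ends differed. Fmod exceeded Bgn 1.43-fold in 3 of 3 libraries (limma adjusted p = 0.0352). That call was lost with the shortest lengths (0.347) and without replicate 1 (0.169) or replicate 2 (0.182). The ratio of Fmod to Dcn was 0.23 on the log2 scale (SE 0.16, limma adjusted p = 0.238), although Fmod was higher in 3 of 3 libraries. Dcn against Bgn changed with the lengths taken, from −0.055 with the shortest to 0.56 with the longest transcripts (limma adjusted p = 0.02). With the GC correction the pair also passed, at 0.57 (limma adjusted p = 0.0264). Bgn exceeded Aspn 2.49-fold (limma adjusted p = 0.00196), but with the GC correction Aspn was the higher, at a log2 ratio of −1.16 (0.00278).

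Below Aspn the levels dropped by 5.78-fold to Kera (limma adjusted p = 0.000446). This was the widest step in the order as deposited. After the GC correction the ratio of Aspn to Kera was 20.5-fold, they were no longer neighbours in the order, and the widest steps were from Omd to Aspn at 5.33-fold and from Bgn to Epyc at 5.06-fold. Kera and Epyc were not told apart (log2 ratio 0.07, SE 0.16, limma adjusted p = 0.713), and Kera was the higher in 2 of 3 libraries. With the GC correction Epyc was the higher (log2 ratio −0.86, limma adjusted p = 0.00986). Epyc exceeded Prelp 1.61-fold (limma adjusted p = 0.0151), or 4.59-fold with the GC correction. It did not pass without replicate 1 (0.0938), without replicate 2 (0.0650) or with the longest transcripts (0.0515).

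The genes differed in GC content, which ranged from 34.3% in Aspn to 53.8% in Prelp. Within each library a smooth curve of log2 level on GC content was removed from all genes. This left Fmod, Bgn and Prelp, all at 53.0% or more, within 0.05 of their log2 levels. The genes of low GC content rose, by 2.42 for Aspn, 2.07 for Omd, 1.82 for Ogn and 1.57 for Epyc. On that scale Ogn came first at 514 RPKM, followed by Lum at 370 and Omd at 324. The same 9 genes were called above 1 RPKM. The correction also removes any true relation of level to GC content, so neither order is taken as the correct one.

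**Figure D2:**
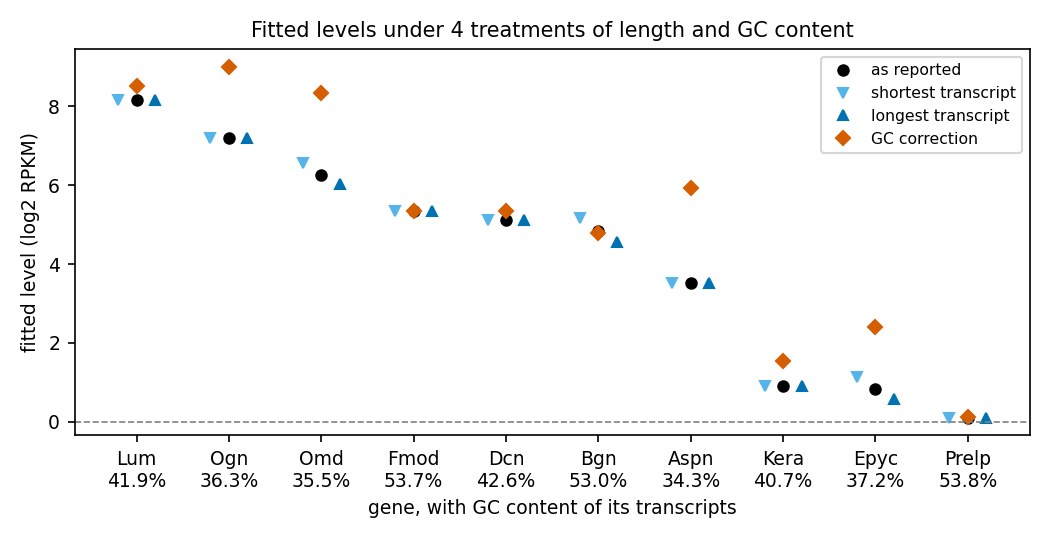
Fitted level of each gene (log2 RPKM, dashed line at 1 RPKM) as reported, with the shortest or longest transcript length, and after the GC correction, with the GC content of the transcripts under each name. The GC correction lifts Aspn by 2.42, Omd by 2.07, Ogn by 1.82 and Epyc by 1.57 and leaves Fmod, Bgn and Prelp nearly in place.

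Most of the family lies in gene clusters, from which the listing by symbol took no information. In the RefSeq annotation of build GRCm38.p6, Dcn, Lum, Kera and Epyc follow each other on chromosome 10. Aspn, Omd and Ogn follow each other on chromosome 13, Prelp and Fmod are neighbours on chromosome 1, and Bgn lies alone on chromosome X. The chromosome 10 genes held 51.6% ± 1.99 of the family's summed RPKM and the chromosome 13 genes 37.2% ± 0.871. That order turned with the GC correction, to 29.9% ± 2.03 for chromosome 10 and 65.1% ± 1.59 for chromosome 13. It also turned with transcript-specific bases of Dcn and Aspn, to 40.5% ± 2.52 and 53.3% ± 2.42.

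Neighbours within a cluster stood at very different levels. On chromosome 10, Lum exceeded the adjacent Kera with a log2 ratio of 7.18 ± 0.37 and the adjacent Dcn with one of 3.04 ± 0.16 (limma adjusted p = 6.52e-05 and 0.000106). With transcript-specific bases as its length, Dcn would stand at 166 RPKM, beside 289 for Lum. On chromosome 1, Fmod exceeded Prelp 34.8-fold, with log2 ratios of 5.18, 5.12 and 5.07 (limma adjusted p = 7.74e-05). On chromosome 13 the levels as reported increased along the cluster in every library, from Aspn through Omd to Ogn. With transcript-specific bases as its length, Aspn would be highest, at 352 RPKM against 77.3 for Omd and 146 for Ogn. The gene Cenpp, which encodes a centromere protein, spans that cluster but shares no exon base with the 3 genes. It stood at 1.58 ± 0.59 RPKM and was unresolved.

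**Figure D3:**
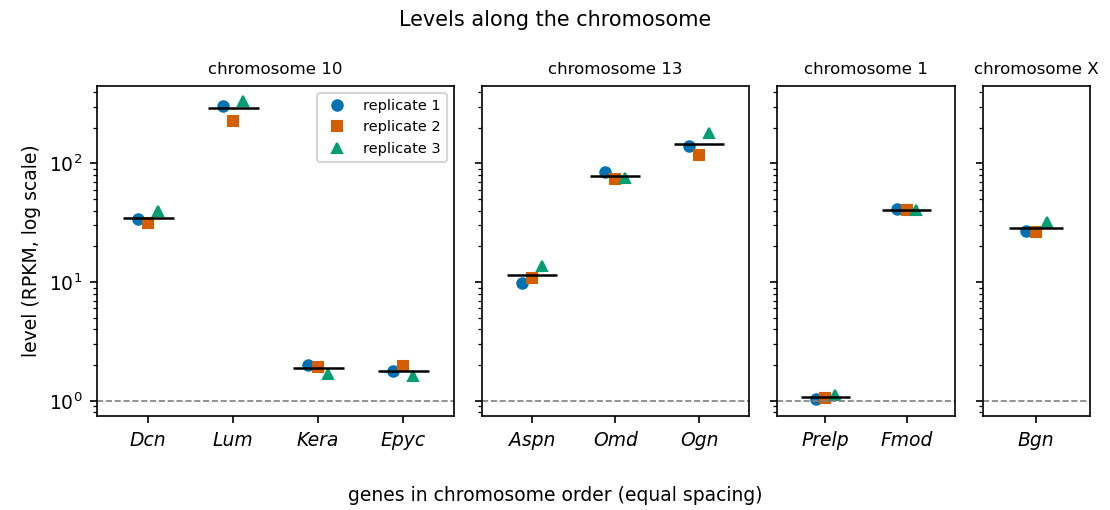
Level (RPKM, log scale) of the genes in their order along chromosomes 10, 13, 1 and X, equally spaced, with one symbol shape per replicate, a bar for the mean and a dashed line at 1 RPKM. With levels as reported, Lum stands far above its neighbours Dcn and Kera, and Fmod far above Prelp, in each library.

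The promoters of the chromosome 13 genes and of Bgn are shown because these neighbours differ in level and because Bgn contrasts with them in base composition. Sequences are from RefSeq (build GRCm38.p6), 250 bases before to 50 after the start, 5′ to 3′ on the plus strand, and 8 of the 10 genes were matched in that table, with 9 promoters. No entry was matched for Lum or Dcn. Capitals mark the letters of a TATA box, spelled TATAAA, of a cyclic AMP response element core, spelled TGACG, of an AP-1 site, spelled TGANTCA, and of a RUNX core, spelled ACCACA, on either strand. In Ogn the TATA box letters occur on both strands and overlap.
Ogn, chr13:49607765-49608064: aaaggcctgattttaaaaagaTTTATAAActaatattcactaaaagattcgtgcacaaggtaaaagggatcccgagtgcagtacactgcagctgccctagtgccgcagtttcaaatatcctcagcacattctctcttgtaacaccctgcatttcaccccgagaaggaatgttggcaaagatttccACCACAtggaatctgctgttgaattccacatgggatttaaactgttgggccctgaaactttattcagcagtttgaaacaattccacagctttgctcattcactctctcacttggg
Omd, chr13:49582212-49582511: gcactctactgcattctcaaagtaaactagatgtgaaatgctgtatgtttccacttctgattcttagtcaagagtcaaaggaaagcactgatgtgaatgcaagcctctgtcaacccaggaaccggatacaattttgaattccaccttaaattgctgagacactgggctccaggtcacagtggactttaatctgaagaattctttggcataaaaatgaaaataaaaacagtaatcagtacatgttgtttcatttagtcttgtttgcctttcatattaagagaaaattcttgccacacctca
Aspn, chr13:49544193-49544492: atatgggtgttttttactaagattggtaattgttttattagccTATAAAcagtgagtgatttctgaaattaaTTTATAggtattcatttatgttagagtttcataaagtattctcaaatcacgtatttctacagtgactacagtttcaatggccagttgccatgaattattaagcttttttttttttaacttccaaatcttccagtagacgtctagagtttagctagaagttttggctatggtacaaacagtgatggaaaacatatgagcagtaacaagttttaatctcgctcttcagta
Bgn, chrX:73483351-73483650: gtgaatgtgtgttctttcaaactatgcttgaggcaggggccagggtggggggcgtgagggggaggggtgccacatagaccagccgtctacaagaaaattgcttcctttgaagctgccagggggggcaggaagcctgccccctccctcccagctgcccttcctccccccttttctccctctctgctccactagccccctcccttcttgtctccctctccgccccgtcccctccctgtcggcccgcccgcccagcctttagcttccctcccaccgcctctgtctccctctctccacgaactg

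GC content was 42.3% in the promoter of Ogn, 37.7% in that of Omd and 31.0% in that of Aspn, against 63.7% in that of Bgn. The TATA box letters were in the windows of Ogn (at −229 and −227 from the start) and Aspn (at −207 and −178), and in 13.6% of all 32851 promoters. ACCACA was in Ogn, at −65, and in 1 of the windows of Epyc, beside 16.8% of all promoters. TGACG and TGANTCA were in none of the 9 windows, beside 20.8% and 7.81% of all promoters. CANNTG, the E-box, was in 7 of the 9 windows and 72.3% of all promoters, and CCAAT in 4 of the 9 and 37.4%, neither marked by capitals. These matches describe letters in a window only.

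The genes did not deviate together in all libraries. In replicate 3, Lum, Ogn, Dcn, Bgn and Aspn lay 0.186 to 0.33 above their own means on the log2 scale. Kera and Epyc lay below theirs in that library, by −0.146 and −0.127. In replicate 2, Lum and Ogn lay at −0.329 and −0.296. The spread of Lum and Ogn, with SDs of 0.29 and 0.31, stood at percentiles 95.3 and 96.1 of genes within a factor of 2 of their level. For Kera, Epyc and Prelp the coefficients of variation were 9.22%, 9.32% and 3.61%, where counting error alone gives 7.74%, 8.21% and 8.18%.

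**Figure D4:**
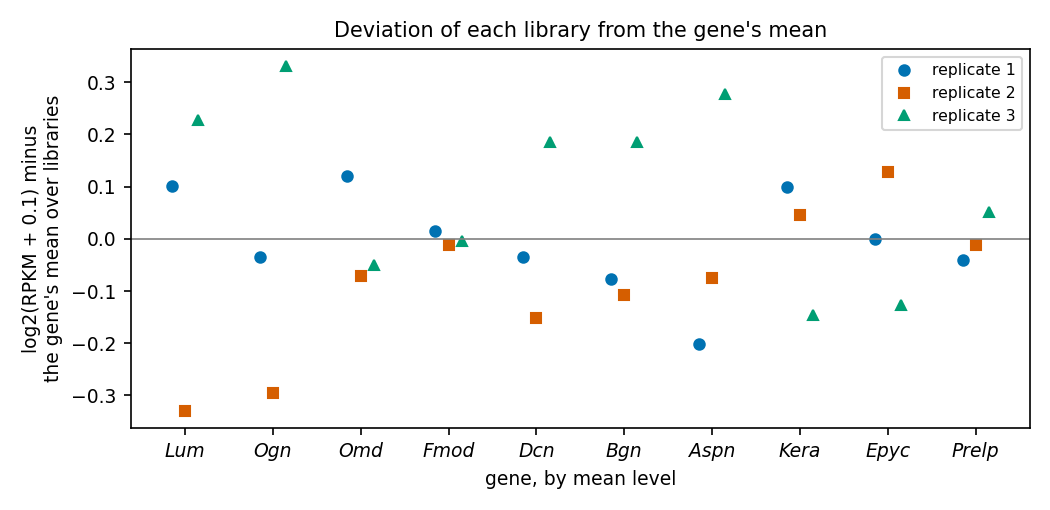
Deviation of each library from the gene's mean over the 3 libraries, in log2(RPKM + 0.1), with genes ordered by level and one symbol shape per replicate. Lum and Ogn range from about −0.3 in replicate 2 to 0.227 and 0.33 in replicate 3, and Fmod stays within 0.0154 of its mean.

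Genes closest to the highest members were chosen by the smallest Euclidean distance in log2(RPKM + 0.1) over the 3 libraries, among genes with 1 row. For Lum they were the predicted gene Gm3362 (distance 0.0843), the SUMO gene Sumo2 (0.0965) and the cap-binding translation factor gene Eif4e (0.165). For Ogn they were Pttg1ip (0.186), the GTPase gene Rab18 (0.189) and the osteocyte marker Pdpn (0.197). Gm3362 stood at 292 ± 45.8 RPKM and Pdpn at 156 ± 27.6. The distance reflects level as well as pattern.

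Other leucine-rich repeat matrix genes were mostly low, their median being 0.224 RPKM, against 0.497 RPKM for all genes with a length. Above 1 RPKM were 2 of the 9, beside 43.3% of all genes tested. Another 1 was below, 5 did not resolve and 1 had no counts. Podnl1 stood at 14.3 ± 1.78 RPKM and Ecm2, the neighbour of Aspn, at 3.68 ± 0.648. Podn (podocan) stood at 0.849 ± 0.267, Chad (chondroadherin) at 0.370 ± 0.184 and Chadl at 0.224 ± 0.121. Nepn stood at 0.141 ± 0.0591 RPKM and Nyx (nyctalopin), the gene below, at 0.124 ± 0.0355. Tsku, with 4 rows, had 2 counts in replicate 1 only, and Optc (opticin), also with 4 rows, was listed at 0 in every library. A count of 0 leaves room for an expected count of up to 3 per library. The row numbers leave Tsku and Optc uncertain.

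Enzymes that build the linkage region and the chondroitin or dermatan sulfate chains were led by transferases and the epimerase. In all, 16 of 22 passed as above 1 RPKM, beside 43.3% of all genes tested, and 1 as below, and the list's median was 11.1 RPKM. Another 4 did not resolve and 1 had no counts. The chain-initiating transferase gene Csgalnact2 stood at 156.5 ± 9.30 RPKM (log2 level 7.29) and its relative Csgalnact1 at 82.7 ± 6.10. Dse, the epimerase that turns chondroitin into dermatan sulfate, stood at 103 ± 2.01 RPKM. Of the xylosyltransferases that start the chain on the core protein, Xylt2 stood at 4.95 ± 0.441 RPKM and was above. Xylt1 stood at 0.0162 ± 0.0164 RPKM, from 5, 11 and 0 counts. The test left Xylt1 unresolved although every library lay far below 1 RPKM. Chst3, a sulfotransferase gene, was the one below, and Chpf, with 2 rows, was listed at 0.

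Keratan sulfate enzymes, which serve lumican, fibromodulin, osteoadherin and keratocan, ranged widely in level. In this list 3 of 7 passed as above 1 RPKM and 1 as below, and the list's median was 1.02 RPKM. That share of genes above is near the 43.3% of all genes tested. B4galt1 stood at 68.5 ± 5.63 RPKM, the sulfotransferase gene Chst2 at 21.3 ± 1.75 and B4galt4 at 7.95 ± 1.58. Chst1, which sulfates galactose in keratan sulfate, was below at 0.352 ± 0.178 RPKM (edgeR adjusted p = 0.0384). B3gnt7, an enzyme that extends the chain, stood at 0.0104 ± 0.018 RPKM, from 0, 3 and 0 counts. The test left B3gnt7 unresolved although every library lay far below 1 RPKM.

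The collagens that the core proteins bind had a higher median and sum than the family, though 4 of the 10 (Col6a3, Col6a2, Col5a1 and Col14a1) lay below Lum. All 10 collagens were above 1 RPKM, beside 43.3% of all genes tested, with a median of 363 RPKM. Col1a2, Col3a1 and Col5a2 stood at 2946 ± 90.4, 1657 ± 43.4 and 518 ± 22.2 RPKM. The summed level of the 10 collagens was 6695 to 7018 RPKM in the 3 libraries, where that of the proteoglycan family was 532 to 720.

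Among growth factors that core proteins bind, 5 of 7 were above 1 RPKM and 1 was below, and their median was 21.7 RPKM. Wisp1 stood at 200.8 ± 35.8 RPKM, Tgfb3 at 55.3 ± 2.77 and Tgfb2 at 32.6 ± 5.95. Receptors for soluble core proteins had 7 of 9 above and 1 below (median 11.2 RPKM). They were led by the endocytic receptor Lrp1 at 522 ± 55.2 RPKM, its relative Lrp6 at 67.4 ± 7.61 and the innate receptor Tlr4 at 26.6 ± 3.33. Lrp1 had 48598 counts in replicate 1 where Lrp6 had 20647, so the gap in RPKM rests partly on the median transcript lengths used. With a longer transcript the level of Lrp1 would be lower. Proteases that process or cleave the core proteins had 10 of 12 above and 0 below (median 35.7 RPKM), with Mmp13 at 664 ± 72.1, Mmp2 at 285 ± 18.6 and Adamts1 at 201.4 ± 8.20 RPKM. Over all 23032 genes with a length, 9100 were above and 2453 below.

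**Figure D5:**
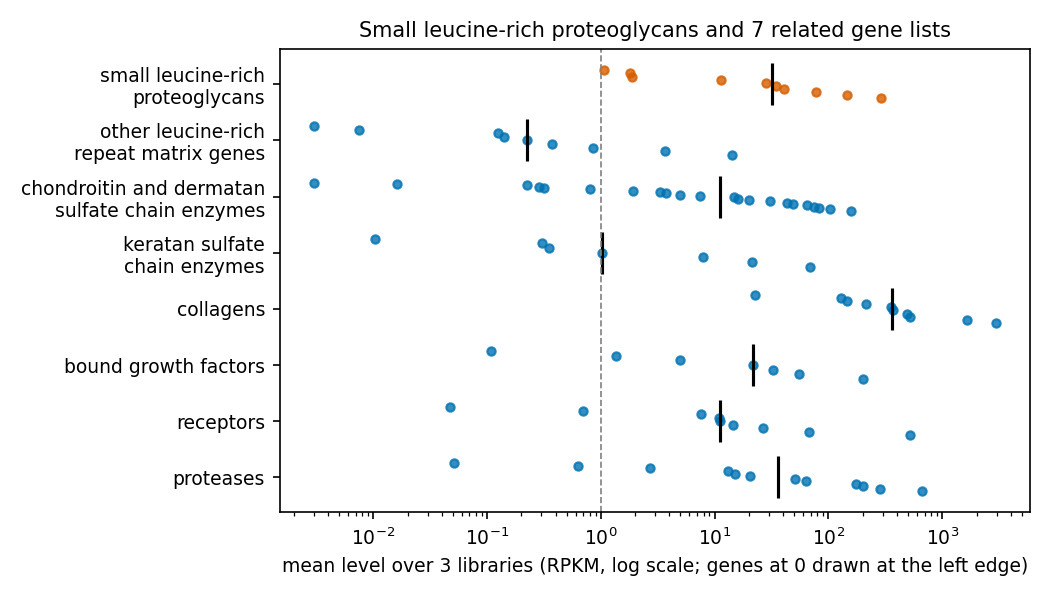
Mean level over 3 libraries (RPKM, log scale) of each gene of the family and of 7 related lists, with a bar at each list's median and a dashed line at 1 RPKM; genes at 0 are drawn at the left edge. The family's median of 31.6 RPKM lies below the 363 RPKM of the collagens and above the 0.224 RPKM of other leucine-rich repeat matrix genes.

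Several of these genes are also typical of tendon, cartilage, fibroblasts or cornea. Markers of those cells were read in the same libraries, in which 43.3% of all genes tested were above 1 RPKM. Of 5 tenocyte markers 2 were above 1 RPKM (Tnmd 7.20 ± 0.651, Scx 4.88 ± 1.15) and 3 below, with a summed level of 12.3 to 14.1 RPKM. Of 8 chondrocyte markers 3 were above and 2 below, and the sum was 66.8 to 95.1 RPKM. Those above were Comp at 49.9 ± 10.9, Col11a2 at 26.0 ± 4.58 and Sox9, which encodes a chondrocyte transcription factor, at 4.17 ± 1.17. Those below were the cartilage matrix genes Acan at 0.687 ± 0.0818 and Col2a1 (2 rows) at 0.118 ± 0.061. Of 5 fibroblast markers 2 were above (Dpt 23.2 ± 0.893, Col14a1 22.8 ± 1.36), with a sum of 45.5 to 47.1 RPKM. Of 3 keratocyte markers only Aldh3a1 was above (1.52 ± 0.607 RPKM) and Ptgds was listed at 0, with a sum of 1.01 to 2.20 RPKM. Adipocyte markers had 2 of 5 above, endothelial markers 1 of 4 and macrophage markers 0 of 4. Their part in the levels of the family was not tested.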

How the data were processed

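RNA-seq libraries of rRNA-depleted total RNA were made with the directional ScriptSeq v2 kit, per the labels' protocols. The authors deposited, for each library, a whole-number count per row named by gene symbol, made from reads they aligned. The file names say RPKM, but the values are whole and sum to a different total in each library, so they were used as raw counts; every RPKM here rests on that reading. TopHat and build mm9 were used, per the submitters' processing notes; no version, counting tool, annotation or strand setting is given in the sources used here.

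Rows were summed per symbol. Lengths and GC content were medians over the basic transcripts of GENCODE M21, matched for 23032 symbols (20840 directly, 2192 by RefSeq synonym); 2378 were left out. Some names, in 40 rows, had become dates.

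Levels were tested two-sided against 1 RPKM with edgeR 4.0.16 in R 4.3.3 (quasi-likelihood, trended dispersion, robust, the expected count as offset, Poisson bound), over 20998 genes above 0 in at least 1 library. Pairs used limma 3.58.1 with a pseudocount of 0.1, and the larger adjusted p of the fits with either gene as reference is given. Benjamini-Hochberg adjustment ran over all genes, with a threshold of 0.05. Scripts were tested on simulated data. Alternatives used DESeq2 1.42.0, limma, TMM factors, other lengths, the highest row, a GC correction and left-out libraries. The labels name no molecular identifiers, so counting errors cover counting only.

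Named genes were the 10 members, all other leucine-rich repeat matrix genes, up to 3 highest genes of each other list, the 3 genes nearest in level to Lum and Ogn, and chromosome neighbours; other named genes were chosen after their values were seen. Members were taken by symbol with no cut on a value, but they and the lists were chosen with earlier results of these data known. The planned search of protein sequences was not run.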

Additional observations from a re-analysis of the deposited data

How the results depend on the processing

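All 10 genes kept their direction and their side of the threshold against 1 RPKM under DESeq2, limma, TMM factors, the filter of 10 counts, shortest and longest lengths, the highest row, the GC correction, each left-out library and, chosen after seeing the data, transcript-specific bases of Dcn and Aspn, with 9 above in every case. The count of differing pairs ran from 37 to 42 with a library left out and from 40 to 42 otherwise. The count hides changes of direction. With the GC correction 42 of 45 pairs differed, but 5 were reversed, 2 lost the call and 2 gained it. Of the reversed pairs 3 differed in both settings, with Aspn now above Bgn, Fmod and Dcn. The log2 ratio of Fmod to Aspn was −0.585 (limma adjusted p = 0.0398) and that of Dcn to Aspn −0.587 (0.0383). The share of counts ran from 0.141% to 0.164% with a library left out, was 0.151% with the highest row and 0.160% without the Rn7s genes.

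Of the recomputed steps between neighbours in the order, 68 kept direction and call, 6 lost the call, 2 gained it and 5 reversed. The reversed log2 ratios were −0.055 (Dcn to Bgn) and −0.23 (Kera to Epyc) with the shortest lengths, and −0.49 (Lum to Ogn), −1.16 (Bgn to Aspn) and −0.86 (Kera to Epyc) with the GC correction. The lengths and the GC curve put into these settings make the shifts; the cause of calls lost with a library left out was not tested. No pairing of libraries between groups was possible because the libraries form 1 group. Kera, Epyc and Prelp rest on 132 to 182 counts each, and depth limits their ratios.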

Other observations

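Genes that flank the family on their chromosomes, and are not members, were read in the same way. Btg2, an antiproliferative gene next to Fmod, stood at 31.3, 30.4 and 35.2 RPKM, close to Fmod in level. Nol8, a nucleolar protein gene next to Ogn, stood at 13.4 ± 0.264 RPKM. Ccer1, next to Epyc, stood at 0.138 ± 0.0995 RPKM and was unresolved. Of the neighbours of Bgn, Haus7 (2 rows) stood at 1.97 ± 0.867 and the calcium pump gene Atp2b3 was below 1 RPKM at 0.253 ± 0.0846.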
